A study of Mus musculus with 8 samples.

Results

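The small leucine-rich proteoglycans are secreted matrix proteins built from leucine-rich repeats, and most of them carry chains of chondroitin, dermatan or keratan sulfate. Here 10 of their genes were followed in mouse cortical bone, out of 55401 genes in the table: Bgn, Dcn, Lum, Fmod, Ogn, Aspn, Omd, Prelp, Kera and Chad. They were taken by gene name, and each name matched 1 row. RNA was sequenced from 8 C57BL/6J samples of cortical bone, the dense outer shell of the bones, labelled 4 weeks, which may stand for the age of the mice or for the time since deletion. The 4 control samples carry floxed alleles of the kinase gene Ripk4 (Ripk4fl/fl) and no Cre. The 4 KO samples carry the same alleles and UbcCre/ERT2, a Cre recombinase driven by the broadly active ubiquitin C promoter and fused to a modified estrogen receptor, so that deletion is not limited to bone cells. The sources used here do not give drug treatment, sex or the number of mice behind a sample, so p-values measure the spread between these samples only.

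In bone, these proteins coat collagen fibrils, set how the fibrils grow and pack, and hold growth factors such as transforming growth factor beta in the matrix. Biglycan (Bgn) and decorin (Dcn) are the classic members of mineralised bone. Osteomodulin (Omd, also called osteoadherin) is made by osteoblasts and binds the mineral and cell surface integrins, while lumican (Lum) and fibromodulin (Fmod) share a binding site on collagen. Mice without biglycan are known for low bone mass.

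Totals ran from 61092688 to 66774693 estimated counts per library, with 22818 to 24525 genes detected. Ripk4 stood at 0 to 12 counts in every library, no more than about 3 fragments, so it does not check the genotype labels. Markers of bone cells were present in both groups, as the label of cortical bone implies. The summed level of 10 osteoblast markers was 1282 to 2824 FPKM (fragments per kilobase of gene, scaled to library size) in control and 258 to 374 FPKM in KO. That of 10 osteocyte markers was 464 to 1120 FPKM in control and 122 to 479 FPKM in KO. Blood cell markers stood far above both. The sum for neutrophils was 30630 to 43638 FPKM in control and 59800 to 71963 FPKM in KO, and that for erythroid cells 16529 to 46768 and 37895 to 56230 FPKM. The mitochondrial share of counts was 6.17%, 9.21%, 16.07% and 11.7% in control 1 to 4, against 5.56% to 6.09% in KO, and its part in the results was not tested. KO 4 stood apart from the other KO libraries for the proteoglycans, with the lowest level of 9 of the 10 genes among them. Control 4 had the highest control level of 7 of the 10.

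The fitted change of all 10 proteoglycan genes was below 0 in KO bone. Of the 10, 5 fell and 0 rose at an edgeR adjusted p under 0.05 (Bgn, Dcn, Lum, Omd and Kera), where 10.3% of the 20152 tested genes passed, 5.03% falling and 5.31% rising. All KO libraries were below all control libraries for 7 of the 10, against 11.3% of tested genes, and the other 3 (Ogn, Prelp and Chad) overlapped. Their median log2 fold change was -1.69, beside -0.02 for all tested genes. Kera passed the filter on low counts only through the control libraries, so its call adds no support. It was not tested at a minimum count of 40, where 4 of the 9 tested members fell. Leaving out any one of control 2, control 3, control 4 and KO 3 brought the 5 down to 3, and the 3 that remained each time were Bgn, Dcn and Lum. With KO 4 left out 5 fell, where 5.45% of tested genes did. In bulk tissue, fewer cells of a type and less RNA per cell cannot be told apart.

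The summed level of the 10 genes was 443, 484, 531 and 591 FPKM in control 1 to 4. It was 205, 201, 190 and 90.9 FPKM in KO 1 to 4. No KO library came near the lowest control library, and KO 4 was lower than the others of its group. The mean was 512 ± 63.4 FPKM for control against 172 ± 54.3 FPKM for KO (SD, n = 4 each).

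**Figure D1:**
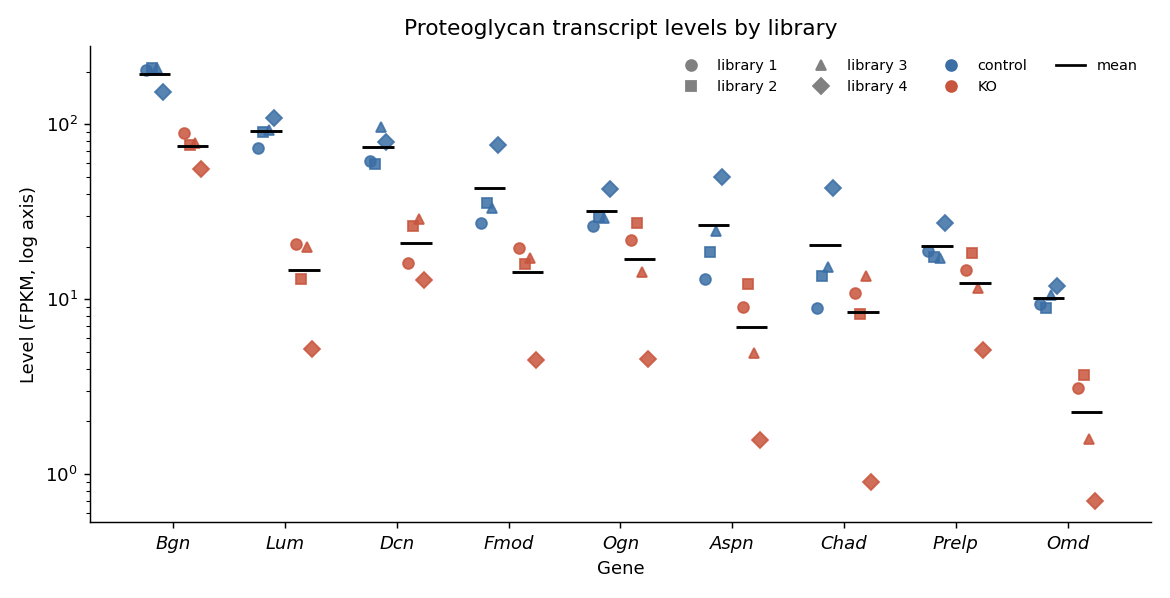
Level in FPKM (log axis) of 9 proteoglycan genes in each of 4 control (blue) and 4 KO (red) libraries, with the group mean as a black bar; a marker shape gives the number in the title, which does not pair libraries, and Kera is left out because it is listed at 0 in 3 libraries. The red points lie below all blue points for Bgn, Lum, Dcn, Fmod, Aspn and Omd, and overlap them for Ogn, Chad and Prelp.

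In control bone the order of the levels was Bgn, Lum, Dcn, Fmod, Ogn, Aspn, Chad, Prelp, Omd and Kera, by mean FPKM. This order depends on the length used, as the FPKM values scale with all exonic bases of a gene. These are 6099 for Bgn and 5838 for Dcn, where the longest coding transcripts hold 2419 and 1758 bases. For Lum both lengths are 2448. In counts, without any length, Dcn was above Lum in every library of both groups. Bgn stood clear of Lum, with 194 FPKM against 91.1 FPKM and ranges that did not overlap. Prelp and Omd were also apart at 20.2 and 10.2 FPKM, as were Omd and Kera at 10.2 and 0.369 FPKM. All other neighbours in this order had overlapping ranges, and Chad and Prelp had nearly the same mean, 20.3 and 20.2 FPKM. In KO bone Bgn was again first with 74.6 FPKM, clear of Dcn with 21 FPKM. By FPKM, Lum moved from the second place to the fourth, at 14.7 FPKM, with a range that overlapped those of Ogn and Fmod.

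Biglycan and decorin each carry chondroitin or dermatan sulfate chains at the amino-terminal end. They are class I proteins together with asporin (Aspn), which has a run of aspartates there instead and is known to bind calcium. Bgn (ENSMUSG00000031375, GRCm38 chromosome X, 73483602 to 73495933, plus strand) measured 204, 210, 211 and 152 FPKM in control 1 to 4. In KO 1 to 4 it measured 89.5, 75.7, 78 and 55.4 FPKM. The groups were well apart although control 4 lay below the other controls, the reverse of its place for most members. Bgn fell 2.57-fold (log2 fold change -1.36 ± 0.17 SE, edgeR adjusted p = 0.00677) and had the smallest spread of the 10 genes in KO, a coefficient of variation of 19%.

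Dcn (ENSMUSG00000019929, chromosome 10, 97479609 to 97518143, plus strand) measured 61.5, 59.2, 96.2 and 78.7 FPKM in control 1 to 4. It measured 16.1, 26.3, 28.6 and 12.9 FPKM in KO 1 to 4. The highest KO library held less than the lowest control library. Dcn fell 3.52-fold (log2 fold change -1.81 ± 0.29 SE, edgeR adjusted p = 0.0108).

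Aspn (ENSMUSG00000021388, chromosome 13, 49544443 to 49567565, plus strand) varied more within each group. Its levels were 13.1, 18.6, 24.5 and 49.7 FPKM in control 1 to 4, against 9.03, 12.2, 4.94 and 1.57 FPKM in KO 1 to 4. Control 1 and KO 2 nearly met, while control 4 and KO 4 lay far out on either side. The log2 fold change of -1.92 ± 0.61 (SE) did not pass (edgeR adjusted p = 0.0812), but did with DESeq2 (adjusted p = 0.00398). Over the other alternatives the adjusted p of Aspn reached 0.228.

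Lumican, fibromodulin, osteomodulin, prolargin (Prelp) and keratocan (Kera) form class II, proteins that can carry keratan sulfate or sulfated tyrosines. Lum (ENSMUSG00000036446, chromosome 10, 97565128 to 97572703, plus strand) measured 73.5, 90.4, 92.2 and 108 FPKM in control 1 to 4. It measured 20.6, 13, 20 and 5.2 FPKM in KO 1 to 4. The control libraries agreed closely and every KO library was far below them. Lum fell 6.13-fold, the largest change among the members other than Kera, at -2.62 ± 0.39 (SE) on the log2 scale (edgeR adjusted p = 0.0093). With any 1 library left out, the log2 fold change of Lum stayed between -2.81 and -2.34.

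Omd (ENSMUSG00000048368, chromosome 13, 49582462 to 49592822, plus strand) measured 9.35, 8.88, 10.5 and 11.9 FPKM in control 1 to 4, against 3.09, 3.68, 1.58 and 0.705 FPKM in KO 1 to 4. The controls were tight, with a coefficient of variation of 13.3%, and the KO libraries all lay below them, though spread over a 5.22-fold range. Omd fell 4.47-fold (log2 fold change -2.16 ± 0.44 SE, edgeR adjusted p = 0.0215). Omd did not pass when control 2, control 3, control 4 or KO 3 was dropped (adjusted p up to 0.0661).

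Fmod (ENSMUSG00000041559, chromosome 1, 134037254 to 134048277, plus strand) measured 27.3, 35.5, 33.4 and 76.3 FPKM in control 1 to 4, against 19.5, 15.9, 17.3 and 4.51 FPKM in KO 1 to 4. The groups did not overlap, but control 4 and KO 4 carried much of the distance. The log2 fold change of -1.57 ± 0.46 (SE) missed the threshold (edgeR adjusted p = 0.0657) and passed with DESeq2 (adjusted p = 0.00341). Over the other alternatives the adjusted p reached 0.206.

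Prelp (ENSMUSG00000041577, chromosome 1, 133910304 to 133921414, minus strand), which binds heparan sulfate and anchors basement membranes to collagen, had the smallest fitted change. It measured 18.9, 17.5, 17.2 and 27.3 FPKM in control 1 to 4, against 14.6, 18.3, 11.6 and 5.15 FPKM in KO 1 to 4. KO 2 lay within the control range. The log2 fold change of -0.69 ± 0.33 (SE) did not pass (edgeR adjusted p = 0.21), and its 95% confidence interval ran from -1.43 to 0.05. An antisense gene, Gm15851, shares 350 exonic bases with Prelp and was at most at 0.0363 FPKM.

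Kera (ENSMUSG00000019932, chromosome 10, 97606879 to 97613692, plus strand), best known from the cornea, was close to the limit of detection. It had 13, 37, 120 and 68 estimated counts in control 1 to 4, against 0, 4, 0 and 0 in KO 1 to 4. Low values in the table pile up at multiples of 4, so 1 fragment was taken as about 4 counts, which gives about 60 fragments in control and 1 in KO. The ratio of control to KO was 61.2, with an exact (Clopper-Pearson) 95% interval of 10.6 to 2459 that covers counting error only. Kera passed (edgeR adjusted p = 0.0241), but not when control 2, control 3, control 4, KO 1 or KO 3 was dropped.

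Osteoglycin (Ogn, also called mimecan) is the class III member, and chondroadherin (Chad) is a class IV protein of cartilage and bone that carries no long sulfated chain and binds collagen and integrins. Ogn (ENSMUSG00000021390, chromosome 13, 49608046 to 49624501, plus strand) measured 26.3, 29.4, 29.3 and 42.6 FPKM in control 1 to 4, against 21.9, 27.4, 14.3 and 4.54 FPKM in KO 1 to 4. KO 2 lay within the control range, and KO 4 was far below the rest. Its log2 fold change of -0.90 ± 0.44 (SE) did not pass (edgeR adjusted p = 0.228), with a 95% confidence interval of -1.90 to 0.11.

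Chad (ENSMUSG00000039084, chromosome 11, 94565047 to 94569127, plus strand) measured 8.87, 13.6, 15.2 and 43.5 FPKM in control 1 to 4, against 10.9, 8.27, 13.6 and 0.9 FPKM in KO 1 to 4. The groups overlapped, with control 4 far above and KO 4 far below the other libraries. The log2 fold change of -1.25 ± 0.74 (SE) did not pass (edgeR adjusted p = 0.308). Leaving out 1 library moved it from -1.59 to -0.60.

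**Figure D2:**
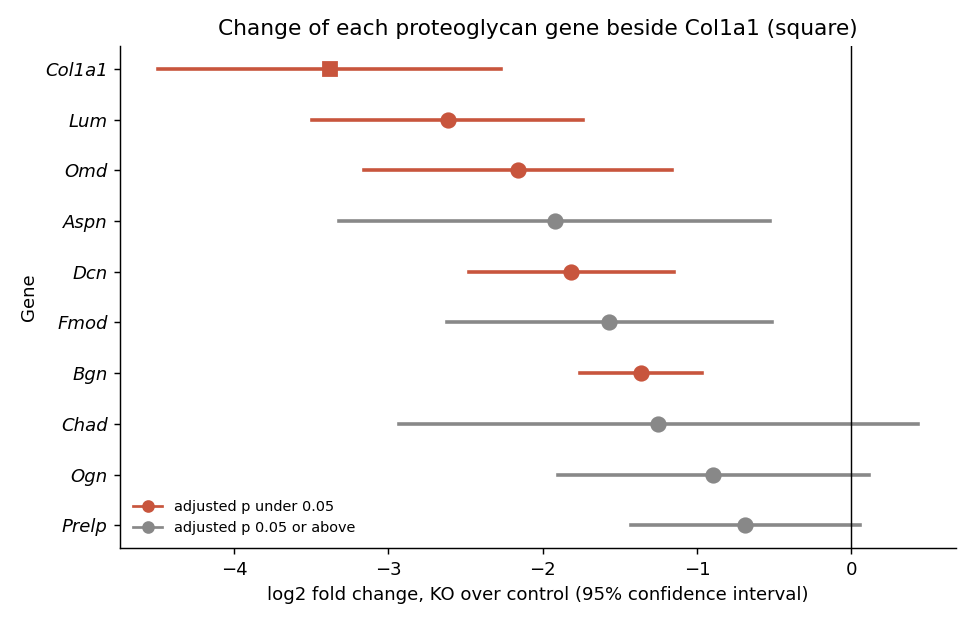
log2 fold change of KO over control with its 95% confidence interval (horizontal lines) for 9 proteoglycan genes and Col1a1 (square), from the edgeR fit; red marks an adjusted p under 0.05 and grey the rest, and Kera is left out for its low counts. Point estimates run from -2.62 for Lum to -0.69 for Prelp, all to the right of Col1a1 at -3.38.

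Several of these genes sit side by side on their chromosomes. Aspn, Omd and Ogn lie within 80.1 kb on chromosome 13, all inside Cenpp, a centromere protein gene on the other strand with which Omd and Ogn share no exonic base and Aspn 7. Mean Cenpp was 1.97 ± 0.285 FPKM in control against 1.82 ± 0.282 FPKM in KO (SD over 4 libraries, edgeR adjusted p = 0.804). Whether the counting used strand is not stated in those sources. The ratio of Omd to Ogn in FPKM was 0.355, 0.302, 0.359 and 0.279 in control 1 to 4, against 0.141, 0.134, 0.111 and 0.155 in KO 1 to 4. These ratios were narrow within each group and did not overlap, including in KO 4, where both genes were at their lowest. The ratio of Aspn to Ogn also did not overlap, at 0.496 to 1.17 in control and 0.345 to 0.446 in KO. These pairs of genes were chosen with their values known, so the ratios are descriptions and carry no test.

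On chromosome 10, Dcn, Lum and Kera lie in this order within 134.1 kb. The ratio of Lum to Dcn was 1.2, 1.53, 0.958 and 1.37 in control 1 to 4, against 1.29, 0.496, 0.699 and 0.402 in KO 1 to 4. By FPKM, Lum exceeded Dcn in 3 of 4 control libraries and fell behind it in 3 of 4 KO libraries, with KO 1 within the control range. Which gene is higher depends on the length used. The FPKM values scale with all exonic bases of a gene, 5838 for Dcn and 2448 for Lum. In counts Dcn was above Lum in every library, such as 25787 against 12931 in control 1. A length fixed per gene does not alter how the ratio changed between groups. Prelp and Fmod span 138 kb on chromosome 1, with no other protein-coding gene between them. Chad lies inside Acsf2, an acyl-CoA synthetase gene on the other strand, with no shared exonic base. Mean Acsf2 was 5.41 ± 0.725 FPKM in control against 4.68 ± 0.587 FPKM in KO (SD over 4 libraries, edgeR adjusted p = 0.371).

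The start regions of the chromosome 13 trio are shown because the genes are neighbours, and those of Bgn and Chad because they hold a GC box. Promoter sequences of 8 members were found in RefSeq (GRCm38.p6), and Dcn and Lum had no entry. The 120 bases before the start site are given 5′ to 3′ on the gene's own strand, with matches to the motifs searched in capitals.
Bgn, chrX:73483481-73483600, plus strand: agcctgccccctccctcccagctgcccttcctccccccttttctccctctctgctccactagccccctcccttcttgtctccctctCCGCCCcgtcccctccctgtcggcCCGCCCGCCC
Aspn, chr13:49544323-49544442, plus strand: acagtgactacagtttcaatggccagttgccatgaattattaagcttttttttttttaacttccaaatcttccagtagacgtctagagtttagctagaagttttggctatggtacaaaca
Omd, chr13:49582342-49582461, plus strand: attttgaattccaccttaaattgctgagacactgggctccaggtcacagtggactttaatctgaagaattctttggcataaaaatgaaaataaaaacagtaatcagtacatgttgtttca
Ogn, chr13:49607895-49608014, plus strand: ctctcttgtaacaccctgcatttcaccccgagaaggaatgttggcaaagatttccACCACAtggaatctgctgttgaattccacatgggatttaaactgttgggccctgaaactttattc
Chad, chr11:94564927-94565046, plus strand: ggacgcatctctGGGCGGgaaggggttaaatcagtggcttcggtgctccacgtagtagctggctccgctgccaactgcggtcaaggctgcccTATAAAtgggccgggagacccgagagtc

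Over 250 bases before the start, the share of G and C was 64.4% for Bgn, 60.4% for Chad, 55.6% for Prelp and 51.2% for Fmod. It was 42.4% for Kera, 42% for Ogn, 38.4% for Omd and 30% for Aspn, where the median of 32536 promoters was 52.4%. The RefSeq start of Kera lies 326 bases inside the gene coordinates given above, so its window falls within the gene as placed there. The RefSeq starts of Bgn, Ogn and Prelp differ from those coordinates by less. The GC box bound by Sp1 (GGGCGG or CCGCCC) was found in Bgn and Chad, 2 of the 8, and in 33% of all promoters. The TATA box letters (TATAAA or TTTATA) were found in Ogn, Aspn and Chad, against 12.3% of all promoters, and only in Chad within 120 bases of the start. The core bound by RUNX factors (ACCACA or TGTGGT) was found in Ogn alone, against 14% of all promoters, and the homeodomain core TAATTA in 0 of the 8, against 4.84%. The motifs do not overlap each other in the printed stretches, except for the overlapping GC boxes next to the start of Bgn. A match describes the letters in the window and not a bound site.

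Lum fell further than Bgn. To ask whether the members changed by the same factor, the log2 ratio of each tested gene to Bgn in the same library was compared between groups with limma. The ratio fell for 3 of the 9 other members (Lum, Omd and Kera), where 0.491% of genes fell relative to Bgn. Kera passed the filter only through the control libraries and adds no support to this count. Only Lum had all KO ratios below all control ratios, where 0.362% of genes did. The ratio rose for 0 of the 9, where 71.1% of genes rose and 71.6% passed in either direction. For Lum the mean log2 ratio was -2.41 in control and -3.82 in KO, a change of -1.41 ± 0.32 (SE, limma adjusted p = 0.00213). The ratio of FPKM values was 0.36, 0.43, 0.436 and 0.712 in control 1 to 4, against 0.231, 0.172, 0.256 and 0.0938 in KO 1 to 4, lower in 4 of 4 KO libraries. The call for Lum held in 11 of 11 alternatives.

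For Omd the ratio to Bgn changed by -1.02 ± 0.39 (SE, limma adjusted p = 0.0336), which did not pass when control 3, control 4, KO 3 or KO 4 was dropped (adjusted p up to 0.0955). That of Kera rests on the few counts above, and its direction turned with log2(FPKM + 0.5), where the change was 0.66. No difference from Bgn was called for the other 6 members. The 95% confidence intervals of their changes ran from -1.10 to 0.15 for Dcn, -1.23 to 0.68 for Fmod and -0.67 to 1.13 for Ogn. They ran from -1.93 to 0.51 for Aspn, -0.15 to 1.28 for Prelp and -1.72 to 1.43 for Chad. Prelp was called higher relative to Bgn when control 4 (adjusted p = 0.0257) or KO 4 (adjusted p = 0.0316) was left out.

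**Figure D3:**
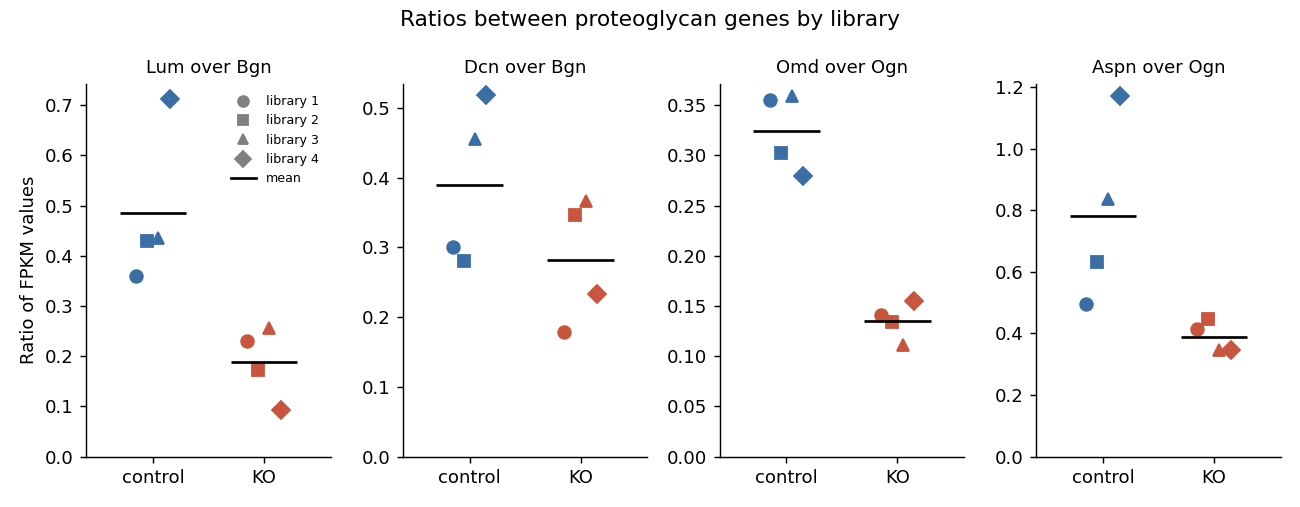
Ratios of FPKM values between pairs of proteoglycan genes in each control (blue) and KO (red) library, with group means as black bars and marker shapes for the number in the title. Lum over Bgn, Omd over Ogn and Aspn over Ogn do not overlap between groups, and Dcn over Bgn overlaps, at 0.281 to 0.518 in control and 0.179 to 0.367 in KO.

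The make-up of the summed proteoglycan level shifted with these unequal changes. Lum made up 17.7 ± 0.95% of it in control and 8.2 ± 2.45% in KO (SD, n = 4 each), and every KO library was below every control library. Omd went from 1.99 ± 0.114% to 1.24 ± 0.518%. Its ranges only just missed each other, at 1.84% in control 2 and 1.83% in KO 2. Prelp took the opposite course, from 3.94 ± 0.616% to 7 ± 1.54%, higher in 4 of 4 KO libraries. Bgn held 46.1%, 43.5%, 39.8% and 25.7% in control 1 to 4, against 43.6%, 37.7%, 41.1% and 60.9% in KO 1 to 4. Apart from control 4 and KO 4, its share was alike in both groups. The size of these shares depends on the gene length in FPKM, 6099 bases for Bgn and 5838 for Dcn against 2448 for Lum. Counting per library size in place of FPKM, which uses no length, Lum made up less of the sum in both groups. Its share then differed by -5.48 percentage points, in the same direction but by less than in FPKM.

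**Figure D4:**
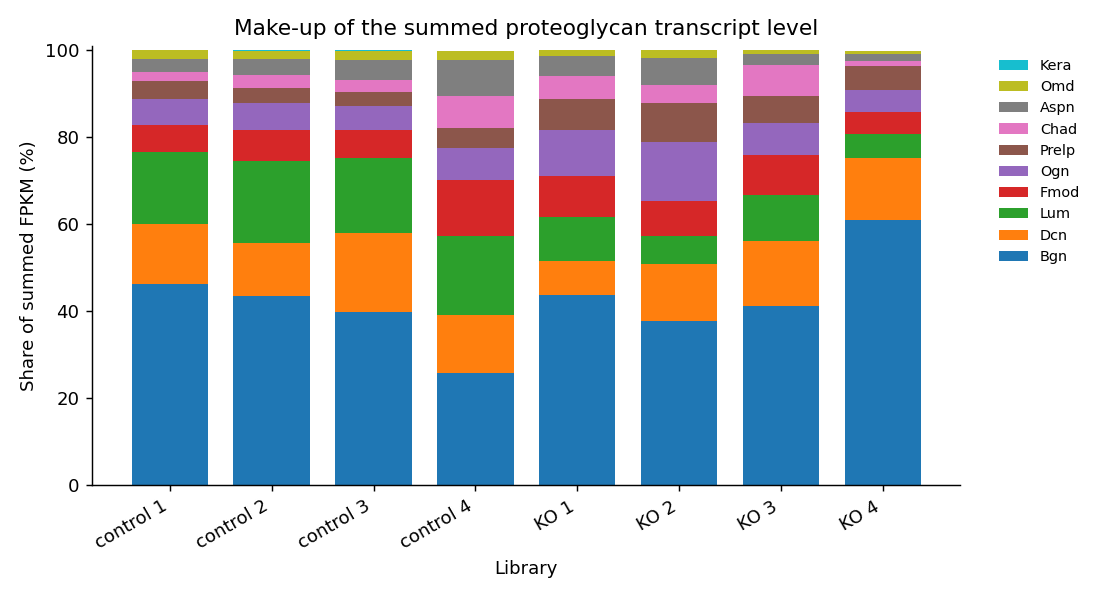
Share of each of the 10 genes in the summed FPKM of the 10, in percent, for each library as a stacked bar that adds to 100%. The Lum segment (green) is 16.6% to 18.7% of the control bars and 5.72% to 10.5% of the KO bars, while the Bgn segment is lowest in control 4 and highest in KO 4.

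The members were also set against the collagen they coat. Col1a1, the main collagen chain of bone, measured 1971, 2091, 3110 and 1026 FPKM in control 1 to 4, against 374, 143, 147 and 125 FPKM in KO 1 to 4. The groups were far apart, with control 4 lowest of the controls, where most proteoglycans were highest. Col1a1 fell 10.4-fold (log2 fold change -3.38 ± 0.49 SE, edgeR adjusted p = 0.00889). The ratio to Col1a1 rose for 7 of the 10 members, among them Bgn by 2.04 ± 0.56, Ogn by 2.27 ± 0.59 and Prelp by 2.61 ± 0.59 on the log2 scale (SE, limma adjusted p = 0.000363, 0.000138 and 1.29e-05). Relative to Col1a1 96.3% of all tested genes rose, so this count is no result about the members. Only Bgn and Prelp had all KO ratios above all control ratios, where 85.4% of genes did. The ratio of Lum to Col1a1 differed by 0.63 ± 0.58 (SE, limma adjusted p = 0.284) and that of Omd by 1.02 ± 0.62 (adjusted p = 0.101). Neither passed, and 0.00993% of genes fell relative to Col1a1. The count of 7 was 4 without KO 3. The summed members stood at 0.225, 0.231, 0.171 and 0.576 of the Col1a1 level in control 1 to 4, against at 0.549, 1.41, 1.29 and 0.729 in KO 1 to 4, so control 4 lay just above KO 1.

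Of the 8 other genes of the family, 0 fell and 0 rose among the 6 that could be tested, though 6 of 6 fitted changes were below 0 (median log2 -0.38). Podnl1, a podocan-like gene, had the highest level of these, with 10.4, 13.7, 9.2 and 12.3 FPKM in control 1 to 4, against 7.3, 6.78, 5.61 and 0.998 FPKM in KO 1 to 4. The groups did not overlap, but the change of -1.12 ± 0.48 (SE) did not pass (edgeR adjusted p = 0.168). Ecm2, an extracellular matrix gene of the same family, went from 2.62 ± 1.27 to 1.01 ± 0.419 FPKM without overlap (SD, n = 4 each) and also did not pass (edgeR adjusted p = 0.0673). Epyc, a cartilage member, was listed at 0 in all 8 libraries. Without KO 4, 1 of these genes fell.

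The genes that build sulfated chains moved in both directions. Of 23 genes for the protein linker and for chondroitin and dermatan sulfate, 4 fell and 4 rose, at a median log2 fold change of -0.13. Among all tested genes 5.03% fell and 5.31% rose. The fallers were the dermatan epimerases Dse and Dsel (-0.52 ± 0.13 and -0.94 ± 0.17, SE), the dermatan sulfotransferase Chst14 (-0.58 ± 0.11) and the polymerising factor Chpf (-0.79 ± 0.20). The risers were the chain-starting enzymes Csgalnact2 (0.49 ± 0.08) and Xylt1 (0.58 ± 0.12) and the chondroitin sulfotransferases Chst12 (0.61 ± 0.12) and Chst13 (0.68 ± 0.15), with edgeR adjusted p from 0.0102 to 0.0428 over all 8. Dropping control 2, control 3 or control 4 left 1 faller, and dropping KO 4 left 2. Dropping control 2 or control 3 left 2 risers, and dropping control 4 or KO 3 left 1.

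Dsel, at 1.37 ± 0.172 FPKM in control against 0.703 ± 0.111 FPKM in KO, and Chst14, at 6.04 ± 0.297 and 3.94 ± 0.317 FPKM, did not overlap between groups (SD, n = 4 each). Of 10 tested genes for keratan sulfate, B4galt1 (0.34 ± 0.07) and B3gnt2 (0.34 ± 0.08) rose and B4galt4 (-0.62 ± 0.15) fell (SE, edgeR adjusted p = 0.025, 0.0391 and 0.0351). These counts stand beside 5.31% of all tested genes rising and 5.03% falling. Dropping KO 3 or any control left 0 of the 2 risers, and dropping KO 1 or KO 4 left 1. The faller was lost without any 1 library but control 1. Of 8 tested genes for sulfate supply and tyrosine sulfation 0 passed, with a median of -0.34. The lowest edgeR adjusted p there was 0.0569 for Papss2, which makes the sulfate donor, and 1 gene fell without KO 1.

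A list of 12 genes held proteases that process or cut these proteoglycans, and Pcolce, which is not itself a protease. Of the 12, 5 fell and 1 rose, where 5.03% of all tested genes fell and 5.31% rose. Bmp1, which trims procollagen and the biglycan precursor, fell from 21.8 ± 3.31 to 9.84 ± 1.7 FPKM, and its enhancer Pcolce from 40.5 ± 6.54 to 12.2 ± 3.62 FPKM (SD, n = 4 each, edgeR adjusted p = 0.00846 and 0.00763). Mmp2, a gelatinase, fell from 69.2 ± 7.26 to 22.7 ± 3.28 FPKM (adjusted p = 0.00234), and Htra1 (-1.40 ± 0.20) and Mmp14 (-0.94 ± 0.14) also fell (SE, adjusted p = 0.00845 and 0.0089). Mmp9, which neutrophils also make, rose, but 0 rose when control 1, control 3, control 4, KO 1 or KO 3 was dropped. The list's median change was -0.29 on the log2 scale.

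Of 21 receptors and growth factors known to bind these proteins, 5 fell and 1 rose, at a median log2 fold change of -0.25. Among all tested genes 5.03% fell and 5.31% rose, so the single rise is no result about the list. The ligand Tgfb3 fell from 11.3 ± 1.8 to 4.47 ± 1.31 FPKM and Bmp2 from 3.41 ± 0.471 to 1.83 ± 0.434 FPKM (SD, n = 4 each, edgeR adjusted p = 0.01 and 0.0257). Ccn4, a matricellular protein that binds biglycan and decorin, changed by -1.85 ± 0.38, and the receptors Met and Lrp6 by -0.98 ± 0.24 and -0.36 ± 0.10 (SE, adjusted p = 0.0227, 0.0362 and 0.0466). Igf1r, a receptor bound by decorin, rose by 0.66 ± 0.15 (adjusted p = 0.0276). Tgfb1, at 43.4 ± 9.69 and 40.7 ± 6.53 FPKM, and the biglycan receptor Tlr4, at 2.73 ± 0.342 and 3.3 ± 2.5 FPKM, did not pass (adjusted p = 0.839 and 0.811); both were picked out by role after their values were seen. Of the 5 falls, 1 was called when control 2, control 3 or KO 3 was dropped, 2 when control 4 or KO 1 was, and 3 when KO 2 was. The single riser did not pass when KO 3 or any control was dropped.

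Fibrillar collagens were lower almost throughout, with 10 of 11 falling and a median log2 fold change of -3.18, a count that moved by less than 1.5 times with any 1 library left out. Where 5.03% of all tested genes fell, other matrix and cell surface proteoglycans had 5 of 17 falling and a median of -0.43. They were the basement membrane proteoglycans Agrn (-0.96 ± 0.12) and Hspg2 (-1.08 ± 0.19), the glypican Gpc4 (-0.94 ± 0.20) and the syndecans Sdc2 (-1.44 ± 0.37) and Sdc3 (-1.13 ± 0.30), with SE and edgeR adjusted p from 0.00727 to 0.0469. Dropping control 2, control 3, control 4 or KO 3 left 2 falls, and dropping KO 2 left 3. When KO 3 or KO 4 was dropped, 1 gene of the list rose.

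**Figure D5:**
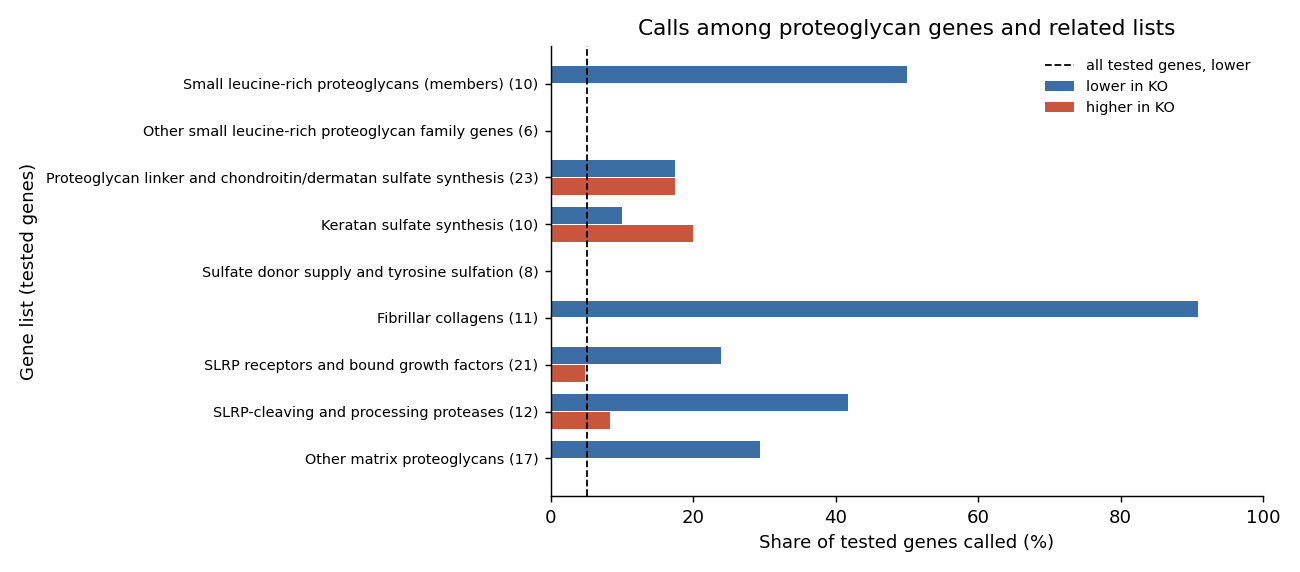
Share of tested genes called lower (blue) or higher (red) in KO at an edgeR adjusted p under 0.05, in percent, for the proteoglycan genes and 8 related lists, with the number of tested genes in brackets; the dashed line is the 5.03% of all tested genes called lower. Called lower are 10 of 11 fibrillar collagens, 5 of 10 small leucine-rich proteoglycans (4 of 9 at a minimum count of 40, without Kera). So are 5 of 12 genes of the protease list, which includes the enhancer Pcolce.

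Markers of cell types that make these proteoglycans were compared between the groups. The share of all tested genes was 5.03% falling and 5.31% rising. Of 10 osteoblast markers 4 fell and 0 rose (7 fell without KO 4). Of 10 osteocyte markers 4 fell (2 when KO 1, KO 3 or any control was dropped). The osteocyte sums above overlapped. Fgf23 (log2 fold change 1.89 ± 0.74, SE) and Cd44 (0.08 ± 0.11) went the other way, and neither passed. Tendon and ligament markers summed to 174 to 276 FPKM in control and 42.4 to 153 FPKM in KO. Tnc held the largest part, at a mean of 153 FPKM in control and 73.7 FPKM in KO (edgeR adjusted p = 0.206). Of the 10 tendon markers only Tnmd fell (edgeR adjusted p = 0.0485), but not when KO 1, KO 3 or any control was dropped. Mkx (0.67 ± 0.57) and Cilp (0.09 ± 0.85) had log2 fold changes above 0 (SE). Chondrocyte markers summed to 56.7 to 124 FPKM in control and 6.06 to 33.5 FPKM in KO, with 3 of 8 tested falling (1 without control 3 or control 4) and 8 of the 10 at a mean below 0.5 FPKM.

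Markers of periosteum and fibroblasts overlapped, at 240 to 341 FPKM in control and 154 to 248 FPKM in KO. Of 10 markers Postn, Pdgfra and Cd34 fell and Pi16, a marker of a fibroblast population, rose. Among all tested genes 5.03% fell and 5.31% rose. Dropping control 2, control 3, control 4 or KO 1 left 1 of the 3 falls, and dropping KO 3 left 0. The rise did not pass when control 2, control 3, control 4 or KO 3 was dropped. Marrow reticular stroma also overlapped, at 229 to 301 and 207 to 323 FPKM, with 0 of 8 markers passing (1 fell without KO 2 or KO 4). Adipocyte markers did so at 67.9 to 156 and 76.3 to 166 FPKM, with 0 of 8 passing. Skeletal muscle markers, 0 of 12 passing, ran from 143 to 3824 FPKM in control, highest in control 3, and from 230 to 1707 FPKM in KO.

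Neutrophil markers were higher in KO, 59800 to 71963 FPKM against 30630 to 43638 FPKM. Of the 10 markers 8 rose (5 without KO 3), where 5.31% of all tested genes did. Erythroid markers overlapped, at 16529 to 46768 and 37895 to 56230 FPKM, with 0 of 7 passing. Endothelial markers summed to 98.2 to 128 FPKM in control and 68.2 to 91.7 FPKM in KO. Of the 8 markers 3 fell, where 5.03% of all tested genes did. Dropping control 2, control 3, control 4 or KO 3 left 0 of these falls, and dropping KO 1 or KO 4 left 1. No marker of these lists was at 0 in all libraries. The part of such markers in the proteoglycan changes was not tested. A fit with a muscle score as a covariate was chosen after seeing the data. In that fit 5 of the 10 members fell, Kera among them, where 3.77% of tested genes fell.

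By the root mean square difference of centred log2 CPM profiles over the 8 libraries, the closest genes to Bgn were Fkbp9 (0.09) and Ppic (0.13), a pair of prolyl isomerase genes. Fkbp9 went from 43.8 to 16.4 FPKM and Ppic from 58.1 to 22.4 FPKM. The closest to Lum were the collagens Col15a1 (0.29) and Col3a1 (0.34). The closest to Dcn were Sorbs2 (0.17) and Hey2 (0.19), and the closest to Omd were Sgcd (0.21) and Syt9 (0.23), all 4 at control levels under 1.5 FPKM. Dkk3 was closest to Aspn (0.33) and the second closest to Fmod (0.28), after Ndufa4l2 (0.27). Ogn was nearest to Stau2 (0.17) and Slc4a3 (0.17), and Prelp to Isoc2b (0.13) and Zswim9 (0.13). Chad was nearest to Ppm1n (0.34) and the cartilage proteoglycan Acan (0.37). Susd5 (0.40) was the second closest to Aspn. Among the members themselves the closest pair was Ogn and Prelp (0.29). These distances include the difference between groups and are a description of 8 libraries.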

How the data were processed

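Cortical bone RNA was read on a NovaSeq instrument, per the labels. For each gene and library the authors deposited an estimated count and an FPKM value. The submitters' processing notes name GRCm38, StringTie 1.3.4d, HISAT2 2.0.4 and DESeq2 but not what each did. How reads were counted, with or without strand, was not given in the sources used here. The deposited counts are whole numbers, and low values pile up at multiples of 4 (7854 values of 4 against 2724 of 3 and 1566 of 5). About 4 counts were therefore read as 1 fragment and 12 counts as 3. Values of 1 (4421) and 2 (3306) also occur, so this unit is only approximate. A gene with a count of 0 has a deposited FPKM of 0.0001, written here as listed at 0. All 16 columns of sample values were matched to the 8 libraries by name, leaving 0 unused. No pair of libraries was within sampling noise (chi-square at least 24.4 per degree of freedom). Of the identifiers, 55141 were found in GENCODE M21, 94.23% of these with the same coordinates.

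KO was compared with control in R 4.3.3 with edgeR 4.0.16 (quasi-likelihood test, TMM scaling), using filterByExpr at a minimum count of 10 and Benjamini-Hochberg adjustment over 20152 tested genes, two-sided, at a threshold of 0.05. It called 2083 genes (10.3%), and 5657 had an unadjusted p under 0.05. Ratios to Bgn and Col1a1 used limma 3.58.1 with a trend on log2 CPM at a prior count of 2, fitted on all tested genes. The edgeR fit and the ratio fit were run on simulated counts with known changes, as a check of the code only. The simulation used a common dispersion for all genes and had no outlying library, unlike these data. The shift of the simulated ratio was fixed by its set-up. The alternatives were other filters, scalings and pseudocounts, limma on FPKM, DESeq2 1.42.0, a replicate block, each library left out, and control 3 and KO 4 left out together; counts divided by 4 and a muscle score covariate were added after seeing the data.

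The members, the gene lists and the tests were chosen with earlier results of these data known. Named genes are the members, the other family genes, up to 4 genes per list with the smallest p, the 2 nearest profiles of each member (predicted genes left out; those of Kera are not reported here), Col1a1, Ripk4 and Mfn2. Beyond the rule, further called members of a list, Cenpp, Acsf2, Tgfb1 and Tlr4 are named. Mfn2, which the series title names, had a log2 fold change of 0.19 (edgeR adjusted p = 0.328).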

Additional observations from a re-analysis of the deposited data

Results flagged for a closer look

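A value was picked out where 1 library stood far from the other 3 of its group by Dixon's test of the gap to its nearest neighbour over the group's range. Of 44 groups looked at 8 were picked out, where chance gives about 1 in 20. Control 4 was low for Bgn at 152 FPKM, and high for Fmod at 76.3 FPKM, for Prelp at 27.3 FPKM and for the share of Chad in the summed level at 7.37%. KO 4 was low for the summed level of the 10 genes at 90.9 FPKM. KO 2 was high for Kera at 0.0223 FPKM, or 0.0111% of the summed level, but this rests on 4 counts beside 0 in the other KO libraries. KO 1 was high for Col1a1 at 374 FPKM.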

How the results depend on the processing

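Of 567 alternative values 510 kept their direction and their side of the threshold, or moved little. Bgn was lower at an adjusted p under 0.05 in 19 of 19 alternatives, Dcn and Lum in 18 of 19, Omd in 14 of 19, Fmod and Aspn in 1 of 19, and Ogn, Prelp and Chad in 0 of 19. Kera was called in 8 of 17 and, besides the libraries named for it, was lost with limma on log2(FPKM + 0.5) and log2(FPKM + 1) (log2 change -0.72 and -0.42, adjusted p = 0.0717 and 0.0862). The count of all called genes was 3965 with DESeq2, 1323 with control 3 and KO 4 left out, and 769 to 2230 with 1 library left out, where 3 to 5 members fell. Between 4 and 8 members rose relative to Col1a1 with 1 library left out. Signs turned for some ratios and shares of members. Those of Kera turned with log2(FPKM + 0.5), to 2.70 relative to Col1a1 and 0.66 relative to Bgn. Relative to Bgn they also turned for Fmod without control 4 (0.15) or KO 4 (0.08), Chad without control 4 (0.42) or KO 4 (0.60) and Ogn without KO 2 (-0.074). With 1 library left out these changes ran from -0.48 to 0.15 for Fmod, -0.53 to 0.60 for Chad and -0.074 to 0.64 for Ogn. Differences in share turned for Fmod without control 4 (1.29 percentage points) or KO 4 (0.68) and for Chad without KO 3 (-0.29), each by less than the spread between libraries. The cause was not tested. The numbers in the titles are not said to pair libraries, and deviations of same-numbered libraries correlated at 0.106, -0.172, 0.0916 and -0.055. With a replicate block 56 genes were called and 1 member, Bgn, fell. Depth limits Kera, Ripk4 and the untested family genes.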
